A study of Mus musculus with 8 samples.

Results

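The miRNA profiles of terminal end buds (TEBs) and of mature ducts were compared within the epithelium of the pubertal mouse mammary gland. The comparison took in 5 of the 8 arrays of the study, the 3 labelled TEB and the 2 labelled duct, and every miRNA set of the array annotated to mouse, 611 in all. Each sample came from female β-actin-GFP reporter mice (FVB/n background) aged 5 weeks, which carry green fluorescent protein, the reporter being common to all samples, and TEBs, mature ducts and distal stroma were cut out of mammary glands under a fluorescence microscope. No treatment or other allele was listed for any group. The labels number the samples of a tissue without saying whether separate mice gave them, so the p-values below measure the spread between these samples only, which may be technical. The 3 stroma arrays entered the fit for its estimate of the spread and are otherwise quoted only where they bear on an epithelial result.

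A miRNA is a short RNA that binds partly complementary sites in messenger RNAs, mainly through its seed, bases 2 to 8 from its 5′ end, and lowers their stability or translation. miRNAs with the same seed can share targets, and many are cut from common precursor transcripts, so that families and genomic clusters are the natural units of such a profile. TEBs are the proliferating, invading tips of the ducts in puberty, made of body cells and an outer cap cell layer, and the mature ducts behind them are tubes of luminal cells surrounded by myoepithelial cells. Epithelia are marked by the miR-200 family, which represses the transcription factors Zeb1 and Zeb2, while miR-17-92 is a MYC-driven cluster linked to proliferation.

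The mature sequences on which the comparison turned are given as RefSeq lists them (GRCm38.p6), with the seed in capitals. RefSeq entries were matched to 141 of the 167 tested miRNAs and 35 of the 41 that differed, through the array's older names rather than probe sequences. The first set holds the miRNAs of the miR-17-92 cluster and its paralogs that were higher in TEBs, with miR-106b as a seed mate that did not pass the test. 4 of them share the seed AAAGUGC and both miR-19 members share GUGCAAA.
miR-20a: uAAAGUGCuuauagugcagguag
miR-20b: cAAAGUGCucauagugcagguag
miR-93: cAAAGUGCuguucgugcagguag
miR-106b: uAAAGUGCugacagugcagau
miR-18a: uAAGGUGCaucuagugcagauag
miR-19a: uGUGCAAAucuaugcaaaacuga
miR-19b: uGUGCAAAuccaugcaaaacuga
The second set holds other leading miRNAs of TEBs. miR-503 is set beside miR-16 and miR-322, the best known seeds of the wider miR-15/16 family.
miR-188-5p: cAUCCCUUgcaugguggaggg
miR-31: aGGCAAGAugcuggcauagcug
miR-132: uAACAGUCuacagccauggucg
miR-135a*: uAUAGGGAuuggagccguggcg
miR-210: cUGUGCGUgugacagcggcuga
miR-503: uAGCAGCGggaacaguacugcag
miR-16: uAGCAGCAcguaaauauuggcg
miR-322: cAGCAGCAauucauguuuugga
The third set holds leading duct miRNAs, the miR-200 family with its pair of seeds, and miR-10a and miR-10b, which share 1 seed.
miR-184: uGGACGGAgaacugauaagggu
miR-200a: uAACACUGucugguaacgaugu
miR-141: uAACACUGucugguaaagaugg
miR-200b: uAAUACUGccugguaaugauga
miR-200c: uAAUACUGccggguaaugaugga
miR-429: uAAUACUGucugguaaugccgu
miR-10a: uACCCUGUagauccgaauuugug
miR-10b: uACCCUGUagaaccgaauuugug
miR-434-3p: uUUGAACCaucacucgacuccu

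miR-18a, miR-19a, miR-20a and miR-19b lie together on chromosome 14, from chr14:115043867-115043889 for the first to chr14:115044358-115044380 for the last. The X chromosome holds miR-20b at chrX:52742159-52742181 and a second copy of miR-19b at chrX:52741991-52742013, with identical mature sequence, so that an array signal cannot assign miR-19b to either locus. miR-93 (chr5:138165574-138165596) lies within the span of Mcm7, a gene for a subunit of the replicative helicase. miR-184 (chr9:89802263-89802284) lay within no protein-coding or long non-coding gene of the RefSeq list, whereas miR-31 (chr4:88910614-88910635) lay within the span of the non-coding gene Gm49890, miR-188-5p (chrX:7248031-7248051) within that of the chloride channel gene Clcn5 and miR-200a (chr4:156054911-156054932) within that of the non-coding gene Gm13648. Exon boundaries were not used here.

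The measured quantity was the total signal of a miRNA on a single-colour Agilent array, summed over its probes after background subtraction by the scanner software, so that weak signals can be negative. Signals were scaled to the upper quartile of the 108 miRNAs detected on all 8 arrays, with factors of 0.75 to 1.05 on the epithelial arrays, and are given below as scaled units. The detection flag was set for 156 to 165 of the 611 miRNAs on a TEB array and for 151 and 169 on the duct arrays. In the epithelium 198 miRNAs were detected on at least 1 array, 120 on all 5 and 413 on none. The summed signal of the 10 listed epithelium markers was 2059 to 2193 units on the TEB arrays and 2161 and 2391 on the duct arrays. On a stroma array it was at most 16.6 units (negative signals counted as 0). Of these 10 markers, 8 were tested. The tissue labels matched them, but the list was chosen with earlier results of these data known, so the match is no independent check of the labels. Signals of the 408 miRNAs detected on no array spread more on the duct arrays, with SDs of 12.2 and 7.10 scaled units, than on the TEB arrays, with SDs of 3.97 to 6.11. Array signals give no read depth, so the precision rests on the number of arrays.

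In the limma fit 41 miRNAs, or 24.6% of the 167 that were tested, had a Benjamini-Hochberg adjusted p under 0.05 between both fractions, of which 19 (11.4%) were higher in TEBs and 22 (13.2%) higher in ducts. The test took in each miRNA that all arrays of 1 tissue or more detected. The TEB and duct arrays did not overlap for any of the 41 miRNAs, against 109 of all 167 (65.3%). Fewer cells of a type and less RNA per cell cannot be told apart in such dissected tissue. The median log2 fold change of TEB over duct across the tested miRNAs was -0.10. The array positions recorded with the scans fall in 2 slide rows, each with TEB and duct arrays. Each of the 41 had the same direction within either row, but the lack of overlap fixes this in advance, so it is no check on the row. With the row as a covariate 32 miRNAs passed, 15 higher in TEBs and 17 higher in ducts. Exact permutation over the 5 arrays cannot go below p = 0.1 for a single miRNA, so the adjusted p-values from limma, which pool the spread over miRNAs, carry the tests below. The balance of directions moved with the scaling. It was 24 higher in TEBs against 6 higher in ducts when each array was scaled to the upper quartile of all mouse miRNAs, 31 against 14 with quantile normalization, 20 against 13 with the median, 18 against 64 with the miRNAs detected on all 5 epithelial arrays and 12 against 63 without scaling. The median log2 fold change of all tested miRNAs was 0.45 in the first of these and -0.47 in the last.

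Under all 5 other scalings 16 of the 41 miRNAs passed with the same direction. These were miR-1224, miR-689, miR-503, miR-210, miR-202-3p, miR-188-5p, miR-135a*, miR-132, miR-31, miR-20b, miR-19a and miR-18a, higher in TEBs, and miR-130b*, miR-184, miR-200a and miR-434-3p, higher in ducts. The count was 70 without TEB replicate 1, 5 without TEB replicate 2, 52 without TEB replicate 3, 10 without duct replicate 1 and 31 without duct replicate 2. The fit without either duct array rests on a lone duct sample, assumed to vary like the other groups. miR-200a, miR-132, miR-31, miR-188-5p and miR-135a* passed whichever of the 8 arrays was left out, although all 5 missed the threshold when scaled signals were floored at the lowest detected signal (adjusted p of 0.0608 to 0.509). The mean stroma signals of these 5 were negative, from -21.1 units for miR-31 to -3.82 for miR-132. Stroma values set to the floor therefore entered their shared spread, as did both duct values of miR-31 and miR-135a*. With 16 added in place of the floor, miR-188-5p, miR-135a* and miR-200a missed the threshold too. With a normexp background correction miR-132 missed it, and miR-31 passed under both. All 5 passed on the 5 epithelial arrays alone, but that fit kept the same floor and so cannot show what the floor contributed. The dot plot of the 41 miRNAs shows every array, with the stroma arrays alongside.

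**Figure D1:**
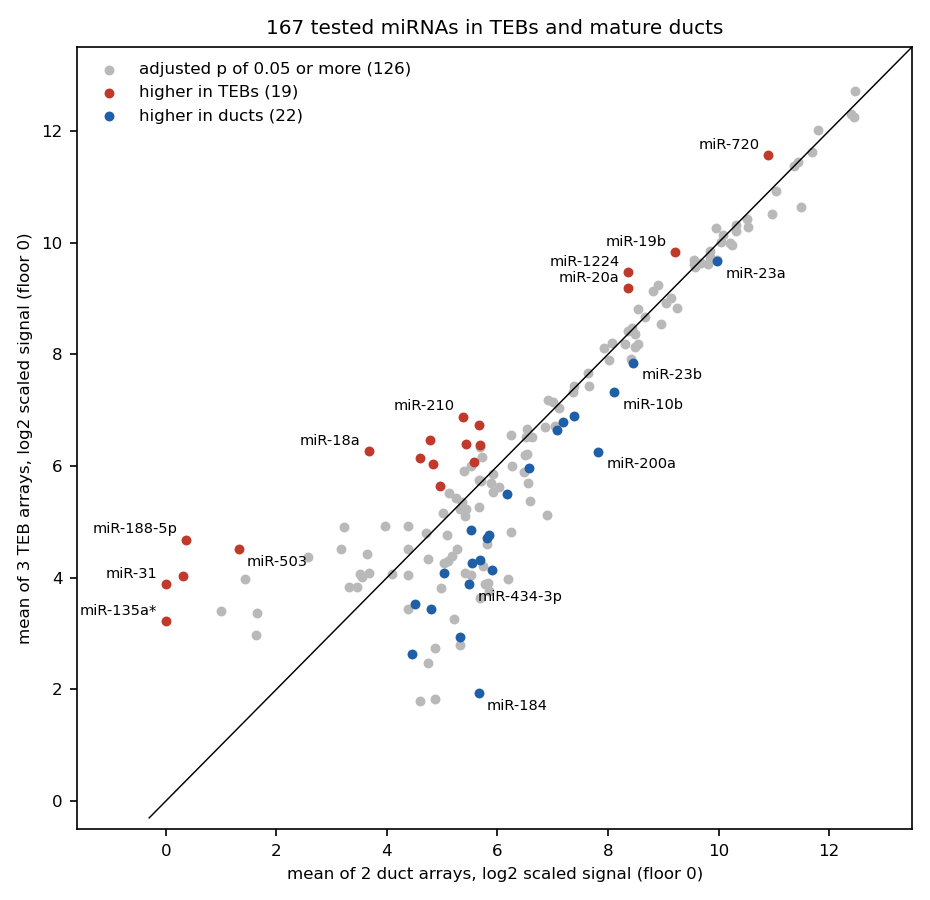
Mean log2 scaled signal of the 167 tested miRNAs on the 3 TEB arrays (vertical axis) against the 2 duct arrays (horizontal axis), with scaled signals under 1 set to 1 and the line marking equal signal. The 19 miRNAs higher in TEBs (red) and the 22 higher in ducts (blue) leave the line mostly at weak signals, and most bright miRNAs lie close to it.

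Some miRNAs were detected in TEBs and on neither duct array. By the detection flags, 7 of the 611 miRNAs (1.15%) had this pattern on all 3 TEB arrays, and 4 of these passed the test. For such miRNAs the fold is given as a lower bound, a ratio of means of log2 values in which each array of the fraction without detection counts at the higher of its weakest detected signal and the miRNA's own signal. It need not equal the ratio of the plain means, and the fitted fold, which depends on the floor, is left out. miR-188-5p, from a cluster within Clcn5 on the X chromosome, had signals of 28.9, 26.1 and 22.4 units in TEBs and -3.40 and 1.67 in ducts. It was at least 4.67-fold higher in TEBs (adjusted p = 4.84e-05, limma). miR-31, which is found deregulated in many carcinomas, had 15.3, 18.1 and 11.5 units in TEBs and -10.1 and -1.29 in ducts, at least 2.68-fold higher (adjusted p = 4.84e-05). The CREB-induced miR-132 had 11.99, 19.5 and 18.5 units in TEBs and -2.22 and 1.54 in ducts. Its signal was at least 2.96-fold higher (adjusted p = 0.000231), with no overlap between fractions. Its cluster mate miR-212 was detected on no epithelial array. miR-135a*, the passenger strand of the miR-135a precursor, was the weakest of the 4. It had 14.3, 11.1 and 5.17 units in TEBs against -9.50 and -5.38 in ducts, at least 1.70-fold higher (adjusted p = 0.00411, limma). The weakest detected signal was 9.89 units on the first duct array and 3.05 on the second. The third TEB signal of miR-135a* lay below the former, so a missing flag on that array says little at such signals. All 4 were absent from the flags of the stroma arrays too. They therefore entered the test only through their detection in TEBs, and their adjusted p-values are no support independent of those flags. Without the detection filter all 4 still passed, with the same floor of 1. miR-185, miR-494 and miR-669f showed the same pattern of flags and did not pass, with adjusted p of 0.0928, 0.0688 and 0.119. miR-494 had 26.0, 26.5 and 39.7 units in TEBs and 15.3 and 5.72 in ducts, but reached 42.4 units on a stroma array. Leaving out duct replicate 2 raised the count of miRNAs with this pattern from 7 to 22, and leaving out TEB replicate 3 raised it to 12.

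Next came miR-17-92 and its paralogs, of which 6 of 10 tested members were higher in TEBs and none in ducts, where 11.4% of all tested miRNAs were higher in TEBs. Their median log2 fold change was 0.65, against -0.10 for all tested miRNAs, and it stayed between 0.29 and 1.20 over the 6 scalings. Of the members detected in both fractions miR-18a changed most, with 64.0, 88.7 and 80.4 units in TEBs and 9.89 and 16.4 in ducts. Its log2 fold change was 2.59 ± 0.43 (SE) with an adjusted p of 0.0134. miR-19a, from the same transcript, had 83.3, 88.4 and 92.8 units in TEBs and 24.1 and 31.0 in ducts, a log2 fold change of 1.69 ± 0.26 (SE) with an adjusted p of 0.0124. In both, the lowest TEB array lay more than 2-fold above the higher duct array. miR-19b, the brightest member, rose less, from 602 and 588 units in ducts to 831, 945 and 955 in TEBs, 1.53-fold (adjusted p = 0.0173). The pair of miR-19 members share a seed and have nearly identical mature sequences, and reading of one by the probes of the other was not tested. miR-20a had 471, 667 and 634 units in TEBs and 335 and 325 in ducts, 1.77-fold higher (adjusted p = 0.0274), the first TEB array lying below the other two. Its X-linked paralog miR-20b, at 86.4, 119.9 and 118 units against 47.7 and 53.8, was 2.11-fold higher (adjusted p = 0.0134).

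miR-93, of the paralogous cluster within Mcm7, had 77.1, 89.0 and 84.5 units in TEBs and 56.6 and 47.0 in ducts and was 1.62-fold higher in TEBs (adjusted p = 0.0148). Its neighbours miR-106b and miR-25 did not pass. miR-106b had 232, 344 and 315 units in TEBs and 272 and 267 in ducts (adjusted p = 0.698), and miR-25 had 176, 231 and 208 in TEBs against 206 and 191 in ducts (adjusted p = 0.856), with overlapping arrays in both. miR-92a, the last member of the chromosome 14 cluster, had 614, 615 and 585 units in TEBs and 498 and 458 in ducts and just missed the threshold (adjusted p = 0.055). The single member with a negative fold change was the passenger strand miR-18a*, detected on both duct arrays and no TEB array at 36.7 and 19.6 units against 1.83, 8.54 and 10.9 (adjusted p = 0.0657). miR-17 itself was detected on no array of any tissue, with negative signals on all 5 epithelial arrays, and was not tested. The members higher in TEBs numbered 3 without scaling, 1 with the replicate number as a block, 1 with the methods' t-test, 3 without duct replicate 2, 0 without duct replicate 1 and 0 without TEB replicate 2, while the median log2 fold change stayed at 0.52 and 0.61 in the last pair. 1 member was higher in ducts without scaling, with the scaling to the miRNAs detected on all 5 epithelial arrays, with 16 added in place of the floor, with the background centred on undetected miRNAs, and without TEB replicate 1 or 3.

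**Figure D2:**
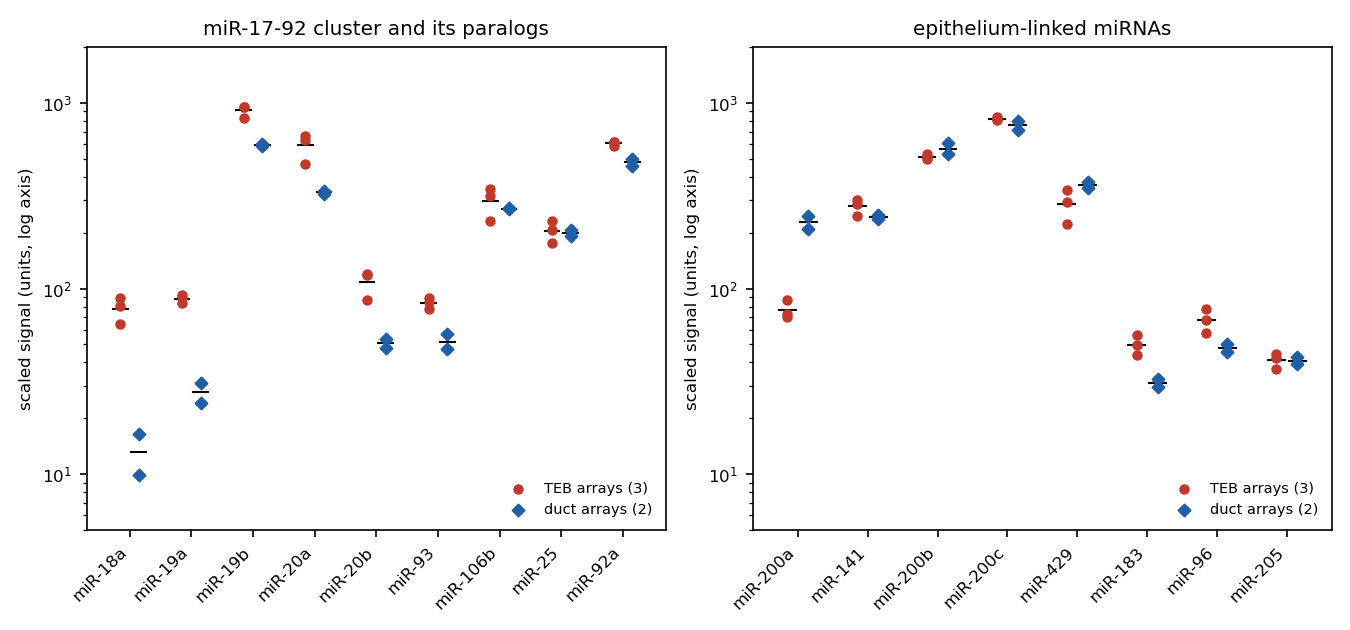
Scaled signal (log axis) on each TEB array (red circles) and duct array (blue diamonds), with short lines for the mean, of the miR-17-92 members and paralogs other than miR-18a* (left) and the tested epithelium-linked miRNAs (right). The TEB arrays lie above the duct arrays for miR-18a, miR-19a, miR-19b, miR-20a, miR-20b, miR-93 and miR-92a, and miR-200a is lower in TEBs while its seed mate miR-141 is not.

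Another 7 miRNAs higher in TEBs belonged to other families. miR-503, from an X-linked cluster with miR-322 and a member of the extended miR-15/16 family that restrains the cell cycle, had 25.4, 20.2 and 22.8 units in TEBs and -1.94 and 6.23 in ducts. It was detected on 1 of the 2 duct arrays (adjusted p = 0.0201). No other of the 7 tested family members passed, where 11.4% of all tested miRNAs were higher in TEBs. miR-322, encoded beside it, was far brighter and did not pass, with 964, 1079.8 and 1061 units in TEBs and 1073 and 1039 in ducts (adjusted p = 0.826). miR-210, the classic hypoxia-induced miRNA, had 97.8, 119 and 141 units in TEBs and 34.3 and 50.5 in ducts, a log2 fold change of 1.503 ± 0.26 (SE) with an adjusted p of 0.0139. Stroma was lower still, at 22.3, 16.9 and 25.6 units. miR-1224, a mirtron spliced from Vwa5b2, was among the bright changers, with 740.0, 659 and 729.5 units in TEBs and 385 and 284 in ducts (2.14-fold, adjusted p = 0.025). Its call was lost when any TEB array, either duct array or stroma replicate 2 was left out, and held without stroma replicate 1 or 3. Blocking by replicate number, dropping the detection filter or using the methods' t-test removed the call as well. miR-455, which lies within the collagen gene Col27a1, had nearly equal TEB signals of 85.3, 85.5 and 82.3 units against 41.5 and 44.6 in ducts, 1.96-fold (adjusted p = 0.0124). The brightest was miR-720, since recognised as a tRNA fragment and dropped from the miRNA registry, with 3226, 2929 and 2929.9 units in TEBs and 1849 and 1941 in ducts (1.597-fold, adjusted p = 0.0139). Its stroma signals, 3260.4, 3536 and 2890.3 units, were at the TEB level. miR-689 had 77.1, 60.7 and 74.8 units in TEBs and 24.5 and 24.1 in ducts (adjusted p = 0.0485), and miR-202-3p, best known from gonads, had 83.5, 49.0 and 68.4 in TEBs against 27.7 and 29.7 in ducts (adjusted p = 0.0466), detected on 1 duct array. For both of these the call was kept only without stroma replicate 3 among the fits that left out 1 array. Of the 19 miRNAs higher in TEBs, 4 passed without TEB replicate 2, 5 without duct replicate 1 and 12 without duct replicate 2.

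miR-183 and miR-96, cut from a single precursor transcript on chromosome 6 and known from sensory epithelia, were both higher in TEBs. miR-183 had 43.9, 56.1 and 49.8 units in TEBs and 29.3 and 32.8 in ducts (1.603-fold, adjusted p = 0.0148). For miR-96 the signals were 57.7, 77.3 and 67.7 in TEBs and 45.7 and 50.3 in ducts (1.399-fold, adjusted p = 0.0466), the smallest change among the 19. Both directions held under the 6 scalings, with a lowest value of 0.12 for the log2 fold change of miR-96 over all alternatives, but miR-96 failed the test whichever array was left out. The remaining cluster member, miR-182, was detected on no epithelial array.

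In the miR-200 family 1 of 5 tested members passed, miR-200a, which was higher in ducts, as were 13.2% of all tested miRNAs. miR-200a had 86.6, 70.5 and 73.0 units in TEBs and 245 and 209.7 in ducts. The TEB mean was 76.7 ± 8.66 (SD, n = 3) and the duct mean 228 ± 25.3 (SD, n = 2), a log2 fold change of -1.57 ± 0.13 (SE) with an adjusted p of 0.00037, or 2.97-fold. The log2 fold change lay between -1.94 and -1.02 over the alternatives. miR-141, which has the same seed but a different locus on chromosome 6, did not pass, with 246, 298 and 287 units in TEBs and 249 and 236 in ducts (adjusted p = 0.209). miR-200b and miR-429, encoded beside miR-200a on chromosome 4, did not pass either. miR-200b had 509.7, 502 and 529 units in TEBs and 607 and 527 in ducts (adjusted p = 0.288), and miR-429 had 224, 338 and 294 in TEBs against 375 and 348 in ducts (adjusted p = 0.701). miR-200c, the brightest member, had 838, 806 and 819.7 units in TEBs and 796 and 716 in ducts (adjusted p = 0.324). miR-205, a marker of basal epithelium, did not pass, with 44.4, 42.2 and 36.7 units against 42.7 and 39.1 (adjusted p = 0.977). Directions of the members that did not pass changed with the scaling, so that 4 of 5 were positive under the upper quartile of all mouse miRNAs and none without scaling. A direct test of miR-200a against its cluster mates was not made.

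**Figure D3:**
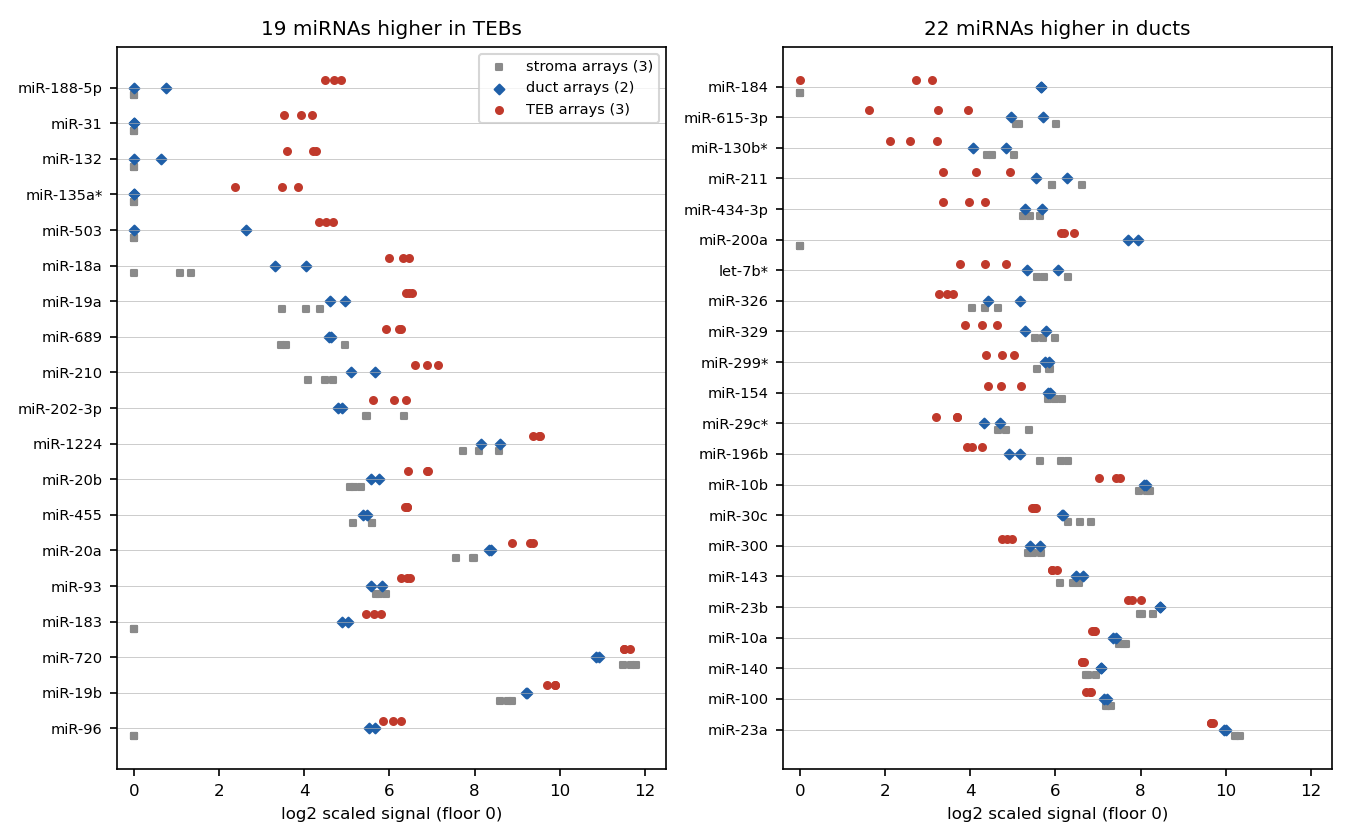
Log2 scaled signal on every array for the 19 miRNAs higher in TEBs (left) and the 22 higher in ducts (right), with TEB arrays as red circles, duct arrays as blue diamonds and stroma arrays as grey squares, and signals under 1 set to 1. TEB and duct arrays overlap for none of the 41, and for 13 miRNAs of the right panel the stroma mean lies above the duct mean.

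Ducts had 22 higher miRNAs, most of them weak. miR-184, known from corneal and epidermal epithelium, led them, with 50.9 and 50.3 units in ducts and 8.51, 6.55 and -0.221 in TEBs. It was detected on no TEB or stroma array and was at least 7.74-fold higher in ducts (adjusted p = 0.0242). miR-184 and miR-200a were the only 2 of the 22 that were detected on no stroma array. Of the 22, 19 had every stroma array above every TEB array, as did 81 of all 167 tested miRNAs. Beside these values, the 3 red cell markers had a summed signal of 1385 to 1923 units in TEBs and 2617 and 3320.2 in ducts, and the endothelial markers 1315 to 1649.8 and 1927 and 2061. The fibroblast markers had 4005 to 5174 units in TEBs and 4769 and 4954 in ducts, and the adipocyte, leukocyte and skeletal muscle markers also overlapped between the fractions. None of the 20 tested markers of these 6 cell types passed the test, against 24.6% of all tested miRNAs. The only tested marker of smooth muscle and myoepithelium, miR-143, was higher in ducts. The part of such cells in the duct results was not tested.

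miR-10b and miR-10a, which lie in the Hoxd and Hoxb gene clusters and share a seed, were both higher in ducts. miR-10b had 182.2, 171 and 130.1 units in TEBs and 282 and 270.0 in ducts, a log2 fold change of -0.79 ± 0.17 (SE) with an adjusted p of 0.0201. For miR-10a the signals were 122, 119 and 116 in TEBs and 165 and 171 in ducts (1.41-fold, adjusted p = 0.0148), a small change whose direction turned with the scaling, since its log2 fold change was 0.05 under the upper quartile of all mouse miRNAs. miR-100, of the related miR-99/100 family, had 105, 114 and 112 units in TEBs and 149 and 142 in ducts (1.32-fold, adjusted p = 0.0242), with the sign reversed to 0.15 on the log2 scale under the same setting. Its seed mate miR-99a did not pass, at 674, 858 and 831 units against 745 and 761 (adjusted p = 0.746). In all, 3 of the 7 tested members of the miR-10, miR-99/100 and miR-125 families were higher in ducts, against 13.2% of all tested miRNAs, and none in TEBs. Their median log2 fold change was -0.29 and ran from -0.65 to 0.27 over the scalings. The calls depended on the scaling as well. With quantile normalization, and with the authors' deposited log2 values, 2 of the 7 were higher in TEBs and 0 in ducts. Without duct replicate 2 or TEB replicate 2 none of the 7 passed, and without duct replicate 1 only miR-10a did.

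miR-23a and miR-23b, members of a pair of clusters with miR-27 and miR-24 that are rich in endothelium and in many differentiated tissues, were also higher in ducts. miR-23b had 259.7, 225 and 210.1 units in TEBs and 353 and 349 in ducts (1.52-fold, adjusted p = 0.0242). The brighter miR-23a had 804, 839.6 and 803 units in TEBs and 1029 and 993 in ducts (1.24-fold, adjusted p = 0.0466), the smallest change of the 22, and its log2 fold change reversed to 0.24 under the upper quartile of all mouse miRNAs. miR-27a, miR-27b and miR-24 did not pass, so that the count was 2 of 5, against 13.2% of all tested miRNAs, with a median log2 fold change of -0.25 and a range over the scalings of -0.62 to 0.30. miR-143, which marks smooth muscle and myoepithelial cells, had 60.6, 65.5 and 60.4 units in TEBs and 101 and 89.5 in ducts (1.53-fold, adjusted p = 0.0274). Its partner miR-145 was detected on no array of either fraction. miR-140, a cartilage miRNA within Wwp2, had 98.2, 101 and 99.1 units in TEBs and 134 and 135 in ducts (1.35-fold, adjusted p = 0.0242), reversing to 0.12 on the log2 scale under that scaling. miR-30c had 45.5, 46.8 and 43.9 units in TEBs and 71.6 and 73.0 in ducts (1.59-fold, adjusted p = 0.025). It was the only one of 6 tested miR-30 family members to pass, where 13.2% of all tested miRNAs were higher in ducts.

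The other duct miRNAs were dim. An epithelial mean under 50 units was found in 13 of the 22, against 70 of the 167 tested. The part that the wider spread of undetected signals on the duct arrays had in these results was not tested. miR-434-3p, from the imprinted Rtl1 locus on chromosome 12, had 10.2, 15.7 and 20.3 units in TEBs and 51.5 and 39.1 in ducts, a log2 fold change of -1.599 ± 0.30 (SE) with an adjusted p of 0.0153. Its chromosomal neighbours miR-329, with 14.7, 19.5 and 24.8 units in TEBs against 54.8 and 39.1 in ducts, and miR-154, with 21.3, 26.3 and 36.3 against 58.7 and 56.5, also passed (adjusted p = 0.0201 for both). miR-299* had 20.8, 26.96 and 32.4 units in TEBs and 57.9 and 54.2 in ducts (adjusted p = 0.0148), and miR-300 had 31.3, 26.7 and 29.3 against 49.7 and 42.1 (adjusted p = 0.0201). The third TEB array was the highest of its fraction for miR-434-3p, miR-329, miR-154 and miR-299*. miR-615-3p, from within Hoxc5, had 3.06, 9.45 and 15.4 units in TEBs and 52.0 and 30.8 in ducts and only just passed (adjusted p = 0.0498). miR-196b, beside the Hoxa genes, had 19.4, 15.2 and 16.4 units in TEBs and 35.7 and 29.9 in ducts (1.93-fold, adjusted p = 0.0242). miR-211, encoded in the melanocyte gene Trpm1, had 10.2, 17.5 and 30.4 units in TEBs and 77.4 and 46.6 in ducts (adjusted p = 0.0466), and the first duct array was the higher, as it was for miR-615-3p and let-7b*.

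miR-326, from within the arrestin gene Arrb1, had 9.66, 12.1 and 10.97 units in TEBs and 36.1 and 21.5 in ducts and was detected on 1 TEB array (adjusted p = 0.0183). The passenger strand let-7b* had 13.4, 20.4 and 28.4 units in TEBs and 66.9 and 40.03 in ducts (adjusted p = 0.0466). It was the only one of 11 tested let-7 and miR-98 members to pass, where 13.2% of all tested miRNAs were higher in ducts. miR-130b* was detected on both duct arrays and no TEB array, at 28.7 and 16.6 units against 4.31, 6.002 and 9.22, at least 3.52-fold higher in ducts (adjusted p = 0.0206). miR-29c*, detected on 1 duct array and no TEB array, had 26.1 and 19.96 units in ducts and 9.12, 12.9 and 12.9 in TEBs, at least 1.99-fold higher (adjusted p = 0.0466). By the flags, 8 of the 611 miRNAs (1.31%) were detected on both duct arrays and no TEB array, of which miR-184 and miR-130b* passed. The other 6, miR-18a*, miR-290-3p, miR-294, miR-346, miR-485* and miR-698, had adjusted p between 0.055 and 0.0891 and were at least 1.91-fold to 6.47-fold higher in ducts. In each of these 6 the first duct array was the higher of the pair, and stroma arrays were flagged as well. The count with this pattern was 14 without duct replicate 1 and 16 without duct replicate 2. Of the 22 miRNAs higher in ducts, 1 passed without TEB replicate 2 (miR-200a), 3 without duct replicate 1 (miR-10a, miR-140 and miR-200a) and 7 without duct replicate 2.

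**Figure D4:**
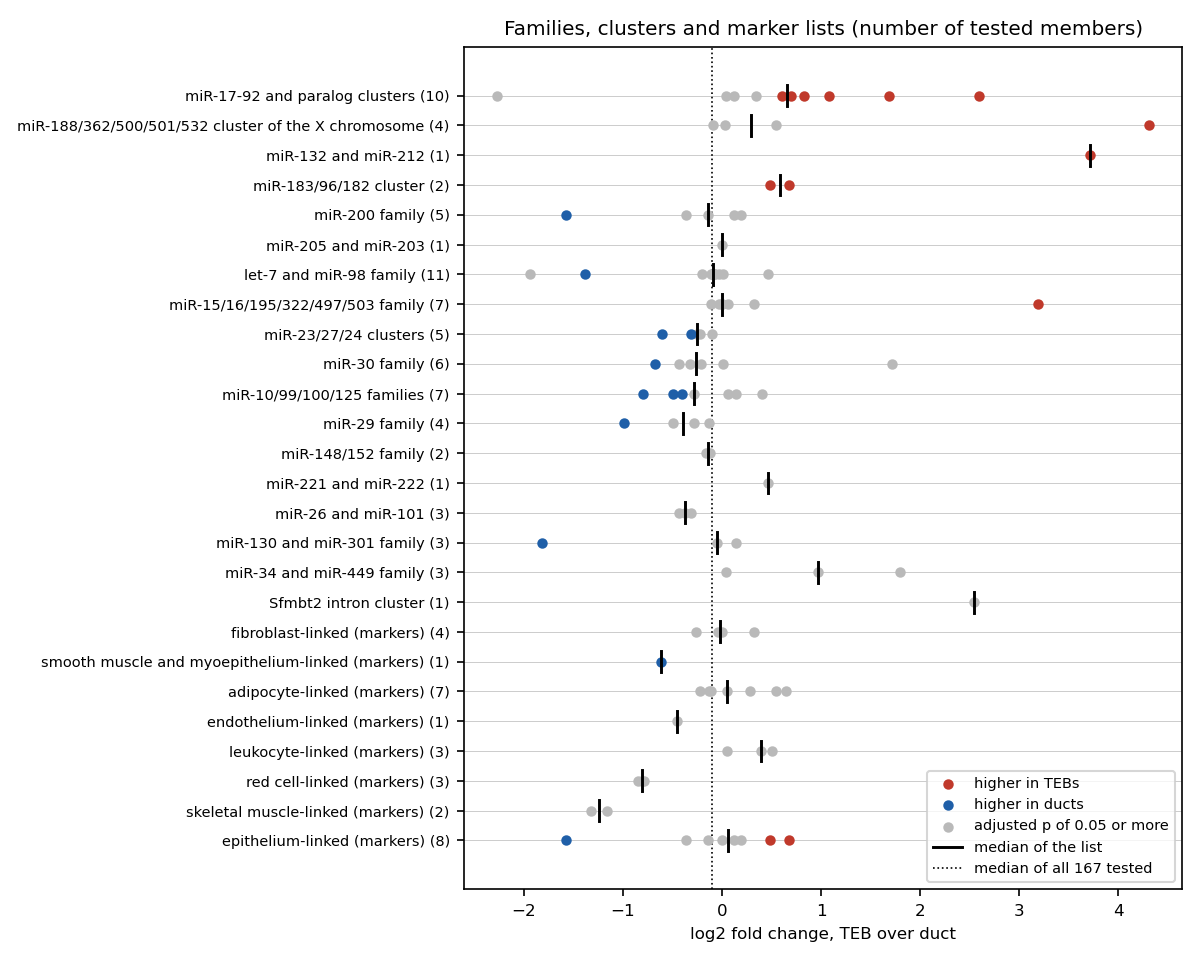
Log2 fold change of TEB over duct for the tested members of each family, cluster or marker list (1 dot per miRNA, red where higher in TEBs, blue where higher in ducts, grey where the adjusted p was 0.05 or more), with black lines for the list medians and a dotted line for the median of all 167 tested miRNAs, -0.10. Values of miRNAs detected in 1 fraction alone depend on the floor. The miR-17-92 list holds 6 red dots, and the miR-200 family holds 1 blue dot.

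In the other families most members did not pass the test. Of the let-7 and miR-98 family, which represses growth-promoting genes such as Lin28 and Hmga2, the 9 members with the seed GAGGUAG had log2 fold changes from -0.20 to 0.47 and none passed. The 6 miR-15/16 members with the seed AGCAGCA ranged from -0.11 to 0.32, again with none past the threshold. miR-29, which represses collagen genes, had 1 of 4 members higher in ducts, as were 13.2% of all tested miRNAs. That member, miR-29c*, was called under 7 of the 24 alternatives that gave a value. The p53-induced miR-34 family had none of 3 past the threshold. Its brightest member miR-34a had 129, 199 and 199 units in TEBs and 163 and 174 in ducts (adjusted p = 0.906). miR-26a, the brightest of miR-26 and miR-101, which repress the Polycomb gene Ezh2, had 404, 354 and 356 units in TEBs and 526 and 475 in ducts (adjusted p = 0.0616). The family of miR-148a and miR-152, with the former at 274, 382 and 340.4 units in TEBs and 330.2 and 388 in ducts (adjusted p = 0.664), had no member past the threshold, and of the 38 miRNAs of the Sfmbt2 intron cluster on the array 37 were detected on no epithelial array.

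Among the 10 brightest miRNAs of the epithelium, miR-720 alone passed the test. The 10 brightest held 48.7% and 49.7% of the summed signal on the duct arrays and 50.8% to 51.1% on the TEB arrays. miR-21, an abundant miRNA raised in many tumours, led with 5061, 7918 and 7628 units in TEBs and 5082 and 6371 in ducts (adjusted p = 0.422), the first TEB array lying with the first duct array. let-7c, let-7b, let-7a, let-7f and let-7i filled 5 of the 10 places, with a let-7c mean of 5069.9 ± 90.1 (SD, n = 3) for TEBs and 5369 ± 75.4 (SD, n = 2) for ducts. The miR-22 mean was 4120.5 ± 166 (SD, n = 3) for TEBs and 3569 ± 62.0 (SD, n = 2) for ducts (adjusted p = 0.0936 from limma). The fibroblast-linked miR-199a-3p had 2777 ± 312 (SD, n = 3) units in TEBs and 2757 ± 58.9 (SD, n = 2) in ducts. miR-451, made in red cells, had 1595, 1874 and 1358 units in TEBs and 3245 and 2556 in ducts without overlap and did not pass (adjusted p = 0.0657). Signals of different miRNAs depend on probe design, so this order is one of signal and not of copy number.

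The spread between arrays of a fraction was close to the error that the scanner software gives for a signal. Over the 142 miRNAs detected on all TEB arrays the median coefficient of variation was 11.1%, against a median scanner error of 10.3%, and over the 143 detected on both duct arrays it was 8.13% against 10.5%. For miRNAs with a mean over 0 and up to 50 units it was 15.3% in TEBs and 21.2% in ducts, and above 500 units 6.24% and 2.89%. With the methods' t-test, run for each miRNA on its own, 12 of the 167 (7.19%) passed after adjustment and 53 (31.7%) before it. The bar chart of calls by setting shows how the counts moved with scaling, floor, filter and single arrays.

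**Figure D5:**
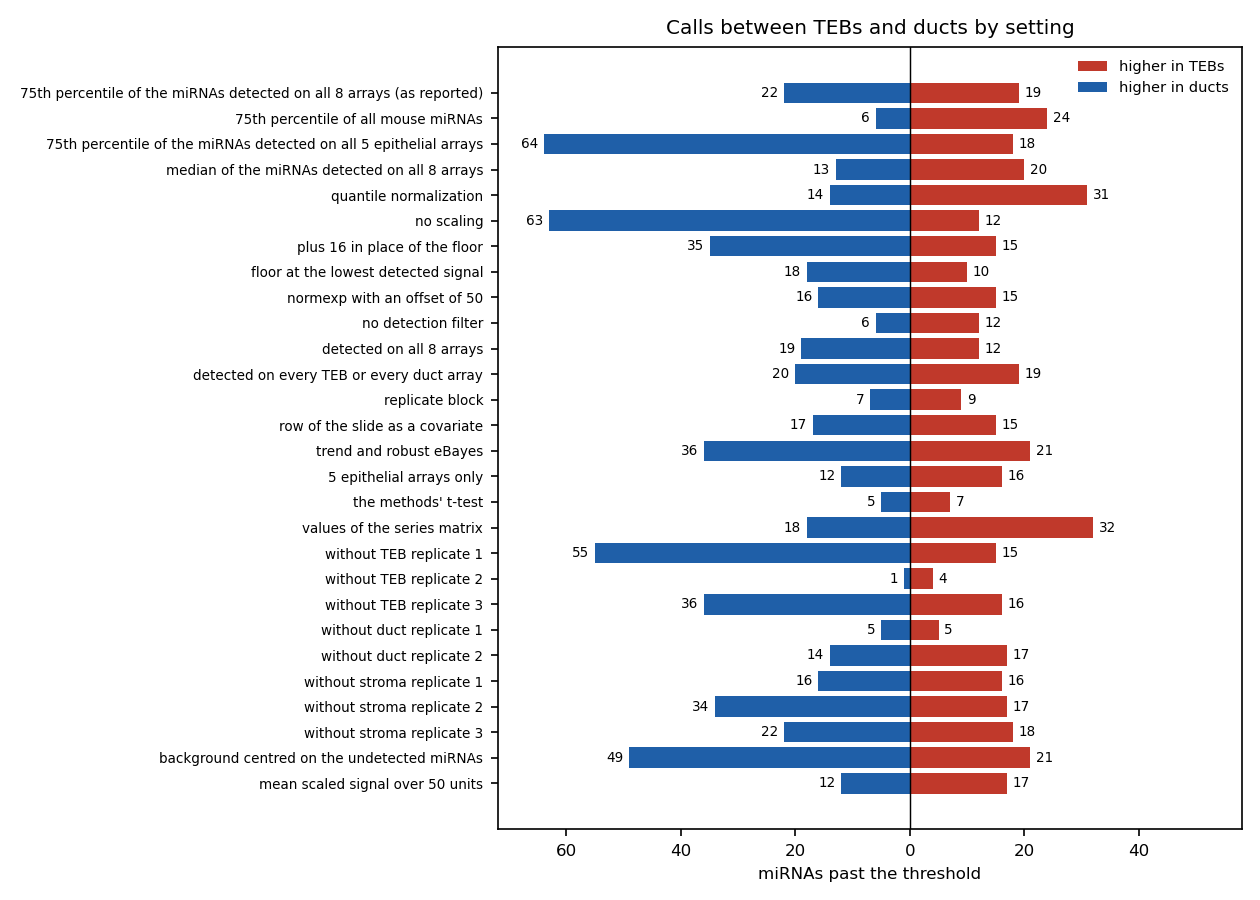
Number of miRNAs past an adjusted p of 0.05 that were higher in TEBs (red, to the right) or higher in ducts (blue, to the left) under the reported setting (top bar, 19 and 22) and each alternative. The red bars stay between 4 and 32 and the blue bars between 1 and 64.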

How the data were processed

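Cy3-labelled RNA of 3 TEB, 2 duct and 3 stroma samples, named by their labels, had been hybridised to Agilent single-colour mouse miRNA arrays. The authors deposited total gene signal intensities from Agilent Feature Extraction (9.5.3 in the submitters' processing notes), background-subtracted, added up over a miRNA's probes and not normalized between arrays, each with an error and a detection flag. They also deposited a table of log2 values, whose normalization is not given in the sources used here. Its lowest correlation with the quantile-normalized signals of an array was 0.953 (Pearson, over miRNAs), and it served as an alternative.

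Control probes and 39 viral miRNAs were left out, and 611 mouse miRNAs were kept. For scaling, each array's 75th percentile over the 108 miRNAs that all 8 arrays detected was brought to a common value, with a floor of 1. The log2 values entered limma 3.58.1 (lmFit, contrasts.fit and eBayes under R 4.3.3, all 8 arrays), with Benjamini-Hochberg adjustment over 167 miRNAs, those that all arrays of 1 tissue or more detected. On simulated arrays the TEB and duct comparison recovered 56.7% of changes of 1 in log2 and 80% of changes of 2. Each rate came from a single simulation with 30 changed miRNAs, and 2 unchanged ones were called at the larger change. The changed miRNAs were drawn only from those above a minimum mean signal, so the rates do not cover the dimmest miRNAs. The files hold no counts, so precision is given as the spread between arrays.

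The miRNAs and lists were chosen with earlier results of these data known. Named were, in either direction, the 15 largest changes past the threshold without overlap, the 10 brightest, those detected in 1 fraction and not in the other, and the members past the threshold and the brightest member of each family or marker list. Cluster and seed mates that did not pass (miR-17, miR-18a*, miR-92a, miR-106b, miR-25, miR-322, miR-141, miR-200b, miR-429, miR-99a, miR-27a, miR-27b, miR-24, miR-182, miR-145 and miR-212), the other members past the threshold and miR-205 were added after their values were seen. Alternatives were other scalings, floors, filters and backgrounds, the replicate number or slide row as a term, other fits, the methods' t-test, and leaving out each array.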

Additional observations from a re-analysis of the deposited data

Results flagged for a closer look

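Signals also appeared in probes outside the mouse miRNAs compared above. Of the 39 viral miRNAs on the array, mghv-miR-M1-2, a murine gammaherpesvirus miRNA, was detected on all 5 epithelial arrays, at a TEB mean of 43.0 ± 12.04 scaled units (SD, n = 3) and a duct mean of 89 ± 37.2 (SD, n = 2). mghv-miR-M1-7-3p, of the same virus, was detected on both duct arrays at 29.5 ± 10.6 units (SD, n = 2) and on no TEB array, where its mean was 10.5 ± 3.82 (SD, n = 3). These probes were not part of any comparison, and the source of their signal was not tested.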

How the results depend on the processing

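Of the 41 miRNAs, 4 turned direction under 1 alternative, the 75th percentile of all mouse miRNAs, with log2 fold changes of 0.054 for miR-10a, 0.12 for miR-140, 0.15 for miR-100 and 0.24 for miR-23a. The others kept their direction under every alternative that gave a value, and none of the 41 passed under every such alternative. The cause of the changes below was not tested. The count of 41 became 82 with the percentile of the miRNAs detected on all 5 epithelial arrays, 75 without scaling, 18 without the detection filter (611 tested), 12 with the methods' t-test after adjustment (53 at their unadjusted threshold) and 70 with each array's background centred on the undetected miRNAs, and leaving out 1 array gave 5 to 70. The 19 miRNAs higher in TEBs became 31 with quantile normalization, 12 without scaling, 10 with the floor at the lowest detected signal, 12 without the filter, 12 with detection on all 8 arrays, 7 with the t-test and 32 with the deposited log2 table, and 4 to 18 without 1 array. The 22 higher in ducts became 6 with the percentile of all miRNAs, 64 with that of the epithelial arrays, 13 with the median, 14 with quantile normalization, 63 without scaling, 35 with 16 added in place of the floor, 6 without the filter, 36 with trend and robust eBayes, 12 on the 5 epithelial arrays alone, 5 with the t-test, 49 with the centred background and 12 for mean signals over 50 units, and 1 to 55 without 1 array. List members past the threshold, 21 in all, became 32 with the percentile of the epithelial arrays, 12 with the floor at the lowest detected signal, 12 on the 5 epithelial arrays alone and 3 to 30 without 1 array. miRNAs detected on every TEB array and no duct array, 7 in all, became 13 when at least 2 arrays and 21 when at least 1 array sufficed, and 7 to 22 without 1 array. The 8 of the opposite pattern became 22 when at least 1 array sufficed, and 8 to 16 without 1 array. The centred background, the limit of 50 units and the left-out arrays for lists were chosen after seeing the data.

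With the replicate number as a block, 16 miRNAs differed, 9 higher in TEBs and 7 in ducts, with 6 list members past the threshold. Deviations from the tissue means correlated at -0.104 on average over the 7 pairs of samples that share a number and at 0.0518 over the 14 pairs that do not. With 2 duct arrays the deviations from the duct mean mirror each other, so these correlations cannot decide whether the number pairs the samples. The main fit took no pairing, as the labels state none.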

Other observations

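A pair of genomic groups ran through the miRNAs higher in ducts, both picked after their values were seen and so described without a test. The miRNAs of the imprinted region on chromosome 12, expressed from the maternal allele beside Dlk1 and Meg3, had 11 tested members, of which 5 were higher in ducts (miR-154, miR-299*, miR-300, miR-329 and miR-434-3p) and 0 in TEBs, where 13.2% of all tested miRNAs were higher in ducts. Their median log2 fold change was -1.08, and in all 11 the stroma mean lay above the TEB mean, as it did for 104 of the 167 tested. Under the 75th percentile of all mouse miRNAs 1 of the 11 was higher in TEBs and 1 in ducts, and without duct replicate 1 or TEB replicate 2 none passed.

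The miRNAs encoded among the Hox genes, which set position along the body axis, had 5 tested members, miR-10a, miR-10b, miR-196a, miR-196b and miR-615-3p. 4 of them, all but miR-196a, were higher in ducts, where 13.2% of all tested miRNAs were, with a median log2 fold change of -0.79 over the 5. All stroma arrays lay above all TEB arrays for each of the 5 and for 81 of the 167 tested. Only 1 passed under the 75th percentile of all mouse miRNAs, where 3 of the 5 were negative, and 0 with quantile normalization, without TEB replicate 2 or without duct replicate 2.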
